A study of Homo sapiens with 24 samples.

Results

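The 35 genes described here encode the enzymes of cholesterol synthesis (18 genes), the regulators of the SREBP system and a sterol carrier (6 genes), enzymes of fatty acid synthesis, desaturation and glycerolipid formation (8 genes), and the sterol exporters ABCA1 and ABCG1 with the ubiquitin ligase MYLIP (3 genes). They came from a list of symbols that was drawn up with earlier results of these data known. Matched through their NCBI Gene identifiers, all 35 were found among the 28395 identifiers of both count tables. Shares of the set given beside those of all genes are therefore a description. LSS and ACACA stayed below the filter on low counts in both cell lines, so 33 genes were tested.

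The study treated 2 established human multiple myeloma cell lines, JJN3, labelled p53 null, and MM1.S, labelled p53 wild type, with CX-5461 at 500 nM, panobinostat at 50 nM, both drugs together at these doses, or vehicle, each for 24 h. For replicates 2 and 3 of CX-5461 in JJN3 the treatment field of the labels reads CX-5462 and CX-5463, while their titles and protocols name CX-5461, and both were taken as CX-5461. Each of the 8 groups held 3 libraries of 3′ RNA sequencing, which counts reads near the polyadenylated end of a transcript. CX-5461 blocks RNA polymerase I, the enzyme that makes most ribosomal RNA. Panobinostat blocks histone deacetylases, which remove acetyl groups from histones. All groups were grown in RPMI-1640 medium, and 1 line stands for each p53 state, so that the state of p53 and any other difference between the lines cannot be told apart. The labels do not say whether replicates came from separate cultures, and p-values measure the spread between these libraries, which may be technical.

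Cells make cholesterol from acetyl-CoA through mevalonate, squalene and lanosterol. When membrane sterol is low, the escort protein SCAP carries the SREBP transcription factors from the endoplasmic reticulum to the Golgi apparatus, where they are cut and released to the nucleus, and when sterol is high the INSIG proteins hold the complex back. SREBP factors raise the genes of most enzymes of both cholesterol and fatty acid synthesis, whereas the LXR receptors, which sense oxidised sterols, raise the exporters ABCA1 and ABCG1, MYLIP and SREBF1. Myeloma cells are malignant plasma cells, which secrete antibody and depend on a large endoplasmic reticulum membrane.

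The libraries held between 4751893 and 7305069 counts, with a median of 5551876. The levels below are CPM, a gene's counts per 1000000 counts of its library, after TMM scaling within a line. Changes are log2 fold changes with their standard errors, and adjusted p-values are those of edgeR's quasi-likelihood test. The 10 plasma cell markers examined were all detected in every group, but CD38 held 1 count and SLAMF7 75 counts over the 3 vehicle libraries of JJN3, against 87 and 19000 counts in those of MM1.S. The summed level of these 10 markers in JJN3 was 3829 to 5123 CPM with CX-5461, 3223 to 3995 CPM with panobinostat and 2517 to 3143 CPM with the combination, against 4098 to 5254 CPM with vehicle. In MM1.S it was 7143 to 7730 CPM with CX-5461, 1107 to 1303 CPM with panobinostat and 987 to 1116 CPM with the combination, against 8903 to 9756 CPM with vehicle. The 9 markers of other cells summed to 12.8 to 27.8 CPM over all libraries, and in vehicle most of it came from EPCAM in JJN3 and PECAM1 in MM1.S. CD3D and KRT8 were at 0 in all vehicle libraries, as were LYZ and COL1A1 in those of JJN3 and MS4A1 in those of MM1.S. The part of the lower plasma cell markers in the results below was not tested, and in bulk libraries fewer cells of a type and less RNA per cell cannot be told apart. In JJN3 the 4 libraries of replicate number 2 stood apart on the second principal component.

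To show the regulatory sequence in front of genes that moved together, the promoters of 5 of them are printed here: MSMO1, INSIG1 and SCD, which were lower with each treatment in MM1.S, and MVD and TM7SF2, which were higher with panobinostat there. The sequences are from RefSeq on the build GRCh38.p14, read 5′ to 3′ along the gene's strand from 250 bases before to 50 bases after the transcript start. They lie at chr4:165327419-165327718 (plus strand, MSMO1), chr7:155297628-155297927 (plus, INSIG1), chr10:100346983-100347282 (plus, SCD), chr16:88663042-88663341 (minus, MVD) and chr11:65111622-65111921 (plus, TM7SF2). Capitals mark the letters CCAAT on either strand (ATTGG on the printed one), the sequence bound by the factor NF-Y.
MSMO1: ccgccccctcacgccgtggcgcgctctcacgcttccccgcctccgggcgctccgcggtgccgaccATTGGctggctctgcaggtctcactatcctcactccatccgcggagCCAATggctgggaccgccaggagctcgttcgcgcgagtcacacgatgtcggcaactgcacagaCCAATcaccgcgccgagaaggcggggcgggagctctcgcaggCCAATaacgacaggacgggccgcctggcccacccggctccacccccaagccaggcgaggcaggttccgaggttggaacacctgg
INSIG1: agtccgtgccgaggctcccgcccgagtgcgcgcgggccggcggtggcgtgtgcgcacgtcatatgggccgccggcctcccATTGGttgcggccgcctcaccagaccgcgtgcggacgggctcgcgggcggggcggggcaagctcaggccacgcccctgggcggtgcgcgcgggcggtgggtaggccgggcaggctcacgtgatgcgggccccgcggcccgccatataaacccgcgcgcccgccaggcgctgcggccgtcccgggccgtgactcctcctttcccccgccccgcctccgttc
SCD: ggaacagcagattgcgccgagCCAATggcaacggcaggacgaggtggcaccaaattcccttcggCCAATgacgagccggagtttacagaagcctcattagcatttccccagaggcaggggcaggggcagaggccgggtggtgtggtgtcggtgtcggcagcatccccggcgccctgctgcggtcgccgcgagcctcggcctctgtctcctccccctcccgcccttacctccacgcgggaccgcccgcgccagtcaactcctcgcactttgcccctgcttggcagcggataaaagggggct
MVD: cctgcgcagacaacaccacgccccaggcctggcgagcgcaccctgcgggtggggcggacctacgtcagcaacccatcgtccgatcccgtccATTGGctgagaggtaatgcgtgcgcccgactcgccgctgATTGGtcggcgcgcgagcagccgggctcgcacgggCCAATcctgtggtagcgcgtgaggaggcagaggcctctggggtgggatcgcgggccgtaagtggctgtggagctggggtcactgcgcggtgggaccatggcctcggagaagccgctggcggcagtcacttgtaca
TM7SF2: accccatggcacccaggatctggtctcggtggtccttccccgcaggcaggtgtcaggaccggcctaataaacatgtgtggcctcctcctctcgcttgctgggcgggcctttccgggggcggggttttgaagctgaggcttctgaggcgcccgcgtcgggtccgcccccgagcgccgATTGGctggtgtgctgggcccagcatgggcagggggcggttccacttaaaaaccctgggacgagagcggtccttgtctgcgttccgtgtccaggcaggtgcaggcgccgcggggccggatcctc
Windows were matched for 30 of the 35 genes (42 windows in all). CCAAT was found 4 times in the window of MSMO1, 3 times in that of MVD and 2 times in that of SCD. It was found 1 time in those of INSIG1 and TM7SF2. It was absent from the windows of CYP51A1, FADS1 and PMVK, which were lower with panobinostat in MM1.S. It was also absent from those of SREBF1 and ABCA1, which were higher there. Of the 20 windows of cholesterol synthesis enzymes 15 held CCAAT, as did 6 of 13 of the fatty acid enzymes, 3 of 7 of the regulators and 1 of 2 of the exporters and MYLIP. Of all 35116 promoter windows of this length, 34.6% held it. The letters TCACNCCAC, a sterol regulatory element on either strand, were found in 1 of the 42 windows, that of SREBF2, and in 1.13% of all windows. The E-box CACGTG was found in 6 of the 42 windows, those of INSIG1, SCAP, LSS, SC5D and ABCA1, and in 7.26% of all windows. No base of the 5 printed windows belonged to more than 1 of these motifs, and a match of letters is a description, not a binding site.

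CX-5461 lowered genes of cholesterol synthesis in MM1.S, and no gene of the set passed the test in JJN3. In MM1.S, 9 of 17 enzymes of the cholesterol pathway fell, led by MSMO1, a sterol methyl oxidase, together with INSIG1, SREBF1, the fatty acid desaturase SCD and the fatty acid synthase FASN. The exporter ABCG1 rose. Over the set, 0 of 33 genes were called in JJN3 (edgeR, adjusted p under 0.05), where 0.0% of 11411 genes were called higher and 0.0% lower, and 1 had an unadjusted p under 0.05, as had 633 of all genes. In MM1.S, 1 of 33 was higher and 13 were lower, where 9.68% of 12030 genes were called higher and 7.06% lower. The median log2 fold change over the 33 genes was -0.10 in JJN3 and -0.31 in MM1.S, beside 0.00 and 0.01 over all genes tested, and that of the 17 cholesterol synthesis enzymes was -0.17 and -0.53. In MM1.S, 11 of the 14 calls held whichever 1 of the 12 libraries was left out. With library size alone as the scaling, 2 genes were higher and 11 lower there, and among all genes called the share that was higher was 75.2% in place of 57.8%.

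In JJN3, libraries with the same replicate number deviated together, and a fit with the number as a block called 1 of the 33 genes for CX-5461, INSIG1, which was lower, where it called 0.605% of all genes higher and 0.771% lower. DESeq2 also called 1 of the 33 genes and 19 of all genes for CX-5461 in JJN3.

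Panobinostat lowered 3 fatty acid enzymes in both lines, while genes of the cholesterol pathway were called in both directions. CYP51A1, EBP, FADS1, FADS2 and FASN were lower in both lines, and TM7SF2, SREBF1, STARD4 and ABCG1 were higher in both. The share of all genes called the same way in both lines is not given, so this list does not show whether the set stood out. In JJN3, 5 of 33 genes were higher and 5 were lower, where 15.0% of all genes were called higher and 10.9% lower. The fit with the replicate block called 7 higher and 9 lower in JJN3, adding PMVK and INSIG2 to the higher and ACAT2, ACLY, ELOVL6 and INSIG1 to the lower, where 22.4% of all genes were called higher and 19.5% lower. In MM1.S, 7 were higher and 15 were lower, where 36.9% of all genes were called higher and 32.9% lower. The members' median log2 fold change was -0.07 in JJN3 and -0.25 in MM1.S, beside 0.01 and 0.07 over all genes. These medians depend on the scaling. In MM1.S upper-quartile scaling moved that of all genes by 0.17, and 61.1% of all called genes were higher in place of 52.9%. In the fit without the block, only 4 of the 10 calls in JJN3 held whichever 1 library was left out, those of EBP, FASN, FADS1 and ABCG1. The number of calls there was 6 without panobinostat replicate 1 and 5 without panobinostat replicate 3. With all libraries, the fit with the block kept all 10 calls. Calls named below as lost without a library are those of the fit without the block. In MM1.S 20 of the 22 calls held whichever 1 library was left out. With upper-quartile scaling 6 genes were higher and 4 lower in JJN3, and among all genes called the share that was higher was 69.6% in place of 57.9%.

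The combination lowered CYP51A1, EBP, ELOVL6, FADS1, FADS2 and INSIG1 in both lines and raised ABCG1 and TM7SF2 in both. Here too the share of all genes called the same way in both lines is not given. It shared its vehicle libraries with the single drugs. In JJN3, 6 of 33 genes were higher and 6 were lower, where 21.0% of all genes were called higher and 18.2% lower. In MM1.S, 8 were higher and 17 were lower, where 37.0% of all genes were called higher and 33.2% lower. HMGCS1, the enzyme that forms HMG-CoA, was the 1 gene of the set called in opposite directions by the combination in the lines, higher in JJN3 and lower in MM1.S. With the replicate block MYLIP, LPIN1 and IDI1 were also called higher and MSMO1 lower in JJN3, where it called 27.6% of all genes higher and 25.9% lower. In the fits without the block, 9 of the 12 calls in JJN3 and 21 of the 25 in MM1.S held whichever 1 library was left out. Without the 4 libraries of replicate number 2, 0 genes of the set were called in JJN3 with CX-5461. There 7 were called higher and 5 lower with panobinostat, and 7 higher and 6 lower with the combination. The shares of all genes called in that fit are not given here, so these counts show only how the calls depended on those libraries. With library size alone as the scaling, 8 genes were higher and 5 lower in JJN3 with the combination, and among all genes called there the share that was higher was 65.7% in place of 53.7%. That scaling moved the median log2 fold change of all genes by 0.11 for the combination in JJN3, and by 0.17 for the combination and 0.14 for panobinostat in MM1.S.

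**Figure D1:**
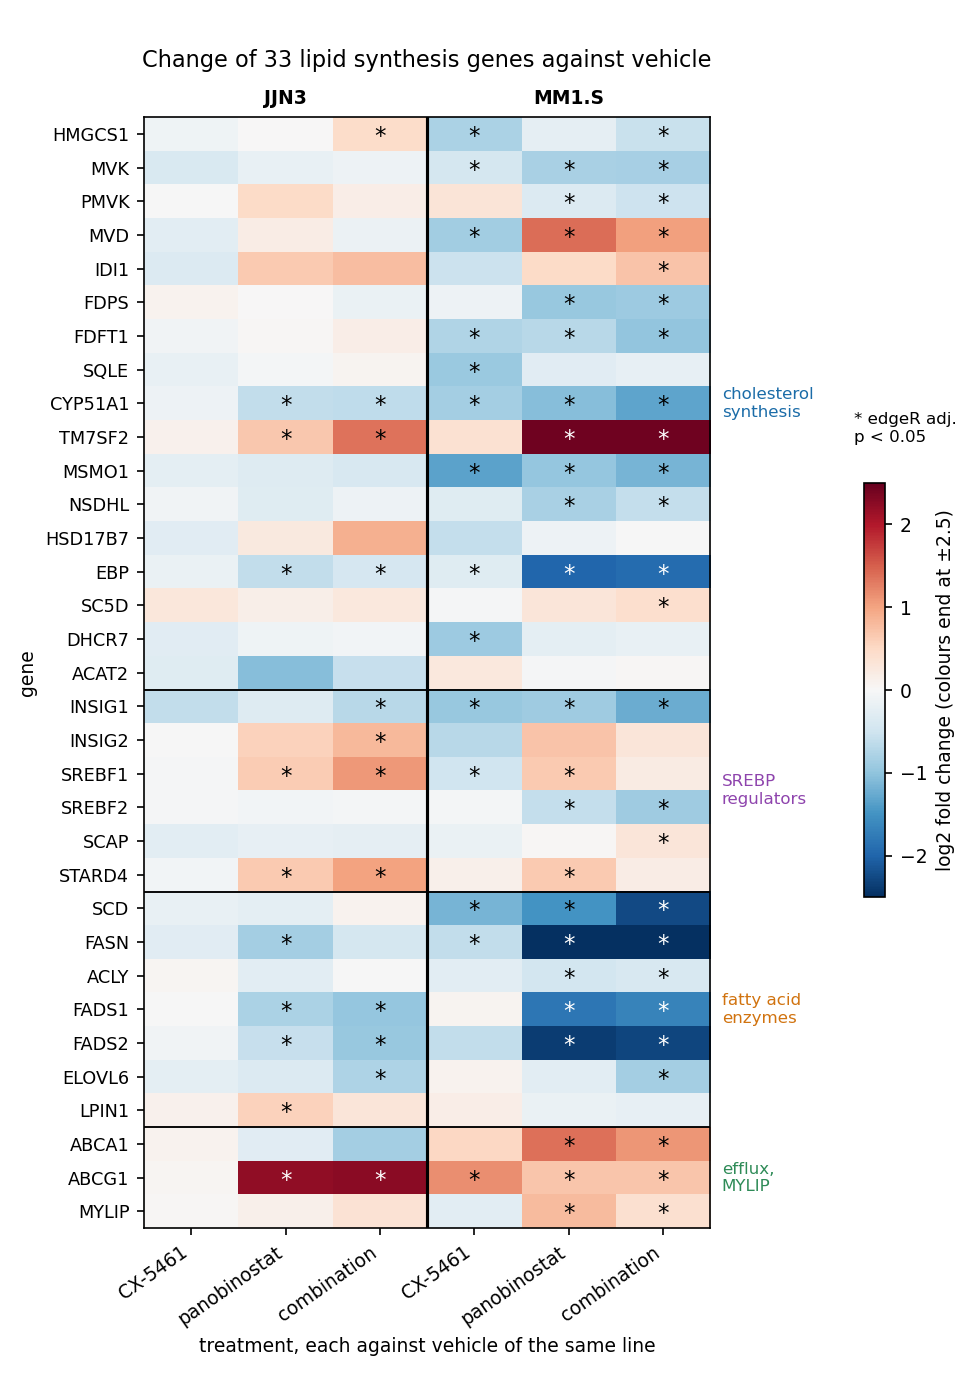
Log2 fold change of the 33 tested genes (rows, by role) with each treatment against vehicle of the same line (columns), JJN3 left and MM1.S right, with red for higher and blue for lower, and a star where the edgeR adjusted p was under 0.05. The CX-5461 column holds 0 stars in JJN3 and 14 in MM1.S, and FASN with panobinostat (-2.97) and the combination (-3.17) in MM1.S reaches the end of the blue scale.

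The first steps of the pathway are catalysed by HMGCS1, which condenses acetyl groups to HMG-CoA, and by the kinases MVK and PMVK, which phosphorylate mevalonate. In JJN3, HMGCS1 had 515, 732 and 609 CPM with CX-5461, 574, 753 and 683 with panobinostat, 873, 859.8 and 984 with the combination, and 565, 804 and 621 with vehicle. The combination libraries lay above all vehicle libraries in JJN3, with a log2 fold change of 0.45 ± 0.15, adjusted p = 0.0268, a call lost without vehicle replicate 1, vehicle replicate 3 or combination replicate 3 (adjusted p up to 0.140). In MM1.S, HMGCS1 had 144, 144 and 187 CPM with CX-5461, 247, 213 and 237 with panobinostat, 186, 188 and 183 with the combination, and 296, 214 and 307 with vehicle. Here the CX-5461 libraries (-0.78 ± 0.12, adjusted p = 6.11e-05) and the combination libraries (-0.55 ± 0.12, adjusted p = 0.000300) were below all vehicle libraries, while panobinostat overlapped vehicle (-0.23 ± 0.12, adjusted p = 0.0976).

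MVK, the kinase that acts first on mevalonate, fell with every treatment in MM1.S. In JJN3, MVK had 22.9, 23.9 and 34.4 CPM with CX-5461, 35.1, 27.8 and 30.4 with panobinostat, 28.9, 30.8 and 36.6 with the combination, and 33.4, 27.1 and 45.0 with vehicle. These groups overlapped, with log2 fold changes of -0.38 ± 0.20 with CX-5461, -0.18 ± 0.20 with panobinostat and -0.14 ± 0.19 with the combination, and 0 of them was called. In MM1.S, MVK had 34.8, 31.9 and 36.6 CPM with CX-5461, 28.7, 22.4 and 29.1 with panobinostat, 27.9, 23.5 and 28.1 with the combination, and 41.8, 51.9 and 47.2 with vehicle. All 9 treated libraries were below the 3 vehicle libraries, with -0.81 ± 0.13, adjusted p = 7.86e-06 for panobinostat, -0.82 ± 0.13, adjusted p = 6.26e-06 for the combination and -0.45 ± 0.13, adjusted p = 0.0174 for CX-5461. The CX-5461 call was lost without vehicle replicate 2, vehicle replicate 3 or CX-5461 replicate 2 (adjusted p up to 0.0816).

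PMVK, the second kinase, was lower in MM1.S with panobinostat and with the combination, and its CX-5461 libraries there lay above vehicle. In JJN3, PMVK had 179.7, 143 and 175 CPM with CX-5461, 255, 164 and 278 with panobinostat, 200.3, 128 and 234 with the combination, and 174, 137 and 191 with vehicle. The replicate 2 library was the lowest of its group in each of the 4 groups, and panobinostat (0.47 ± 0.22, adjusted p = 0.125) was called with the replicate block (0.46 ± 0.09, adjusted p = 0.000213). In MM1.S, PMVK had 155, 150.2 and 169 CPM with CX-5461, 122, 84.0 and 94.3 with panobinostat, 88.9, 75.8 and 99.1 with the combination, and 129.8, 122 and 126 with vehicle. The combination was below vehicle in every library (-0.52 ± 0.12, adjusted p = 0.000529). Panobinostat overlapped vehicle (-0.33 ± 0.12, adjusted p = 0.0176), a call lost without panobinostat replicate 2 or 3 (adjusted p up to 0.111). With all libraries, this call was also lost under library size or upper-quartile scaling (adjusted p up to 0.235) and in 1 fit of both lines. The 3 CX-5461 libraries of MM1.S were above all vehicle libraries without a call (0.33 ± 0.12, adjusted p = 0.0608), and the change was called higher under library size or upper-quartile scaling and with no filter.

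MVD, which decarboxylates mevalonate diphosphate to the isoprene unit, moved in opposite directions with the single drugs in MM1.S. In JJN3, MVD had 28.9, 38.5 and 33.7 CPM with CX-5461, 45.0, 52.2 and 40.8 with panobinostat, 32.4, 40.0 and 37.5 with the combination, and 36.6, 41.3 and 43.3 with vehicle. The treated groups overlapped vehicle, with log2 fold changes of -0.26 ± 0.15, 0.19 ± 0.15 and -0.15 ± 0.15 for CX-5461, panobinostat and the combination, and 0 of them was called. In MM1.S, MVD had 28.6, 24.0 and 31.5 CPM with CX-5461, 161, 122 and 121 with panobinostat, 112, 102 and 99.1 with the combination, and 55.4, 51.7 and 47.2 with vehicle. CX-5461 was below all vehicle libraries (-0.87 ± 0.13, adjusted p = 3.22e-05), and panobinostat (1.39 ± 0.12, adjusted p = 2.59e-10) and the combination (1.02 ± 0.12, adjusted p = 6.49e-08) were above them. These 3 calls held without any 1 library.

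FDPS forms farnesyl diphosphate, and FDFT1, squalene synthase, joins a pair of them to squalene, the committed step towards sterols. In JJN3, FDPS had 7.39, 18.2 and 17.5 CPM with CX-5461, 10.2, 16.0 and 14.6 with panobinostat, 9.68, 11.9 and 14.5 with the combination, and 10.3, 16.4 and 13.8 with vehicle. In MM1.S, FDPS had 15.5, 15.4 and 15.7 CPM with CX-5461, 10.6, 7.51 and 8.26 with panobinostat, 8.68, 7.96 and 10.3 with the combination, and 18.6, 13.4 and 18.4 with vehicle. FDPS was below vehicle with panobinostat (-0.95 ± 0.19, adjusted p = 0.000105) and the combination (-0.91 ± 0.19, adjusted p = 0.000140) in MM1.S, while all groups of JJN3 overlapped. FDPS shares its locus with the antisense RNA RUSC1-AS1 and has the pseudogene FDPSP2, and without a stated strand setting its counts are uncertain.

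In JJN3, FDFT1 had 217, 222 and 213 CPM with CX-5461, 240.3, 254 and 217 with panobinostat, 274, 232 and 276 with the combination, and 236, 239 and 221 with vehicle. The JJN3 groups overlapped, with log2 fold changes of -0.09 ± 0.11 for CX-5461, 0.03 ± 0.11 for panobinostat and 0.17 ± 0.11 for the combination. In MM1.S, FDFT1 had 112, 118 and 138 CPM with CX-5461, 148, 118 and 117 with panobinostat, 117, 94.5 and 98.0 with the combination, and 212, 196 and 209 with vehicle. Each treatment left all its libraries below those of vehicle in MM1.S, at -0.74 ± 0.11, adjusted p = 2.93e-05 for CX-5461, -0.69 ± 0.11, adjusted p = 6.69e-06 for panobinostat and -0.99 ± 0.11, adjusted p = 2.26e-08 for the combination.

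Of the enzymes that turn lanosterol into cholesterol, CYP51A1, the lanosterol demethylase, fell in both lines with panobinostat and with the combination. In JJN3, CYP51A1 had 82.7, 90.2 and 62.2 CPM with CX-5461, 47.9, 74.7 and 45.8 with panobinostat, 47.1, 64.6 and 54.0 with the combination, and 83.8, 99.6 and 72.5 with vehicle. Panobinostat overlapped vehicle there (-0.61 ± 0.20, adjusted p = 0.0308), a call lost without vehicle replicate 1 or 2 or panobinostat replicate 1 or 3 (adjusted p up to 0.126) and under upper-quartile scaling. The combination was below vehicle in every JJN3 library (-0.63 ± 0.19, adjusted p = 0.0168), a call lost without vehicle replicate 2 or combination replicate 1 or 3 (adjusted p up to 0.0821). In MM1.S, CYP51A1 had 78.2, 89.9 and 88.0 CPM with CX-5461, 71.6, 74.6 and 73.6 with panobinostat, 66.2, 58.0 and 60.1 with the combination, and 155, 145 and 158 with vehicle. The 3 treatments were each below vehicle in every library, at -0.84 ± 0.10, adjusted p = 6.88e-07 for CX-5461, -1.06 ± 0.10, adjusted p = 6.41e-10 for panobinostat and -1.31 ± 0.10, adjusted p = 1.30e-11 for the combination. An antisense gene, CYP51A1-AS1, overlaps this locus.

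TM7SF2, a sterol reductase that acts after CYP51A1, rose with panobinostat. In JJN3, TM7SF2 had 17.2, 12.7 and 16.7 CPM with CX-5461, 25.8, 19.0 and 23.7 with panobinostat, 42.2, 30.4 and 38.7 with the combination, and 18.5, 10.4 and 14.6 with vehicle. Panobinostat (0.66 ± 0.21, adjusted p = 0.0293) and the combination (1.36 ± 0.21, adjusted p = 6.51e-05) were above vehicle in JJN3, and the panobinostat call was lost without vehicle replicate 2 or 3 or panobinostat replicate 1 or 3 (adjusted p up to 0.134). In MM1.S, TM7SF2 had 21.9, 20.8 and 18.9 CPM with CX-5461, 104, 75.7 and 75.1 with panobinostat, 80.8, 78.8 and 94.7 with the combination, and 14.5, 20.6 and 12.9 with vehicle. The panobinostat (2.42 ± 0.16, adjusted p = 1.15e-12) and combination libraries (2.43 ± 0.16, adjusted p = 1.03e-12) were the highest there, with no overlap with vehicle, whereas CX-5461 overlapped it (0.38 ± 0.17, adjusted p = 0.137).

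MSMO1, which removes methyl groups from sterol intermediates, had the largest fall with CX-5461 among the tested genes of the set in MM1.S. In JJN3, MSMO1 had 107, 103 and 71.0 CPM with CX-5461, 94.9, 95.2 and 74.8 with panobinostat, 93.4, 73.1 and 84.6 with the combination, and 129, 133 and 71.7 with vehicle. Vehicle replicate 3 was low, and all groups overlapped, with -0.25 ± 0.21, adjusted p = 0.980 for CX-5461, -0.33 ± 0.21, adjusted p = 0.269 for panobinostat and -0.40 ± 0.21, adjusted p = 0.138 for the combination, which was called with the replicate block (adjusted p = 0.0331). In MM1.S, MSMO1 had 32.6, 33.7 and 42.6 CPM with CX-5461, 41.7, 44.6 and 52.9 with panobinostat, 44.2, 43.6 and 35.1 with the combination, and 101, 71.6 and 101 with vehicle. All 9 treated libraries of MM1.S were below the lowest vehicle library, at -1.33 ± 0.14, adjusted p = 2.03e-07 for CX-5461, -0.98 ± 0.14, adjusted p = 1.15e-06 for panobinostat and -1.16 ± 0.14, adjusted p = 8.99e-08 for the combination.

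EBP, the sterol isomerase, fell with panobinostat in both lines. In JJN3, EBP had 105, 96.2 and 107 CPM with CX-5461, 68.9, 68.7 and 87.7 with panobinostat, 85.7, 86.6 and 85.6 with the combination, and 119.8, 107 and 119.5 with vehicle. Panobinostat (-0.62 ± 0.12, adjusted p = 0.00138) and the combination (-0.42 ± 0.12, adjusted p = 0.00994) left all libraries below vehicle, and the combination's call was lost with library size alone as the scaling. In MM1.S, EBP had 303, 295 and 341 CPM with CX-5461, 92.5, 107 and 92.9 with panobinostat, 119, 87.7 and 102 with the combination, and 395, 382 and 387 with vehicle. The log2 fold change was -1.99 ± 0.11, adjusted p = 3.37e-14 with panobinostat and -1.92 ± 0.11, adjusted p = 6.07e-14 with the combination. The change with CX-5461 (-0.31 ± 0.10, adjusted p = 0.0397) was lost when any 1 of 5 libraries was left out, vehicle replicates 1, 2 and 3 and CX-5461 replicates 1 and 2 (adjusted p up to 0.137), and under library size or upper-quartile scaling.

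The rest of the cholesterol pathway is given by group means or ranges. SQLE, which oxidises squalene, had mean levels of 9.30 ± 0.984 CPM with CX-5461 and 17.6 ± 3.88 CPM with vehicle in MM1.S (SD, n = 3 each), and fell with CX-5461 (-0.93 ± 0.19, adjusted p = 0.00126). DHCR7, which reduces the last intermediate to cholesterol, had 29.8 ± 1.66 CPM with CX-5461 and 56.1 ± 3.65 CPM with vehicle there (-0.91 ± 0.13, adjusted p = 1.07e-05). NSDHL, which acts with MSMO1, was lower with panobinostat (-0.82 ± 0.15, adjusted p = 4.24e-05) and the combination (-0.59 ± 0.15, adjusted p = 0.00115) in MM1.S. IDI1, the isopentenyl isomerase, was higher with the combination in MM1.S (0.71 ± 0.27, adjusted p = 0.0225), a call lost without vehicle replicate 1 or 2 or combination replicate 1 or 3 (adjusted p up to 0.164). SC5D, a sterol desaturase, was at 0.42 ± 0.18, adjusted p = 0.0404 in the same comparison, lost when any 1 of 6 of the 12 libraries was left out (adjusted p up to 0.184). HSD17B7, which acts with NSDHL, was called with 0 of the 3 treatments in either line. Without vehicle replicate 2 of JJN3, HSD17B7 was called higher there with panobinostat (1.36, adjusted p = 0.0325) and with the combination (1.99, adjusted p = 0.00128). ACAT2, which makes acetoacetyl-CoA, was called with the replicate block but not without it, lower with panobinostat in JJN3 (-1.05 ± 0.36, adjusted p = 0.0201, against -1.06 ± 0.44, adjusted p = 0.0864 without the block). Both had few reads, at 0.375 to 4.91 CPM for ACAT2 and 1.59 to 11.7 CPM for HSD17B7, and the ACAT2 locus overlaps TCP1 and SOD2 while HSD17B7 has the pseudogene HSD17B7P2. LSS, which closes the sterol rings, was listed at 0 to 1.31 CPM and was not tested.

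**Figure D2:**
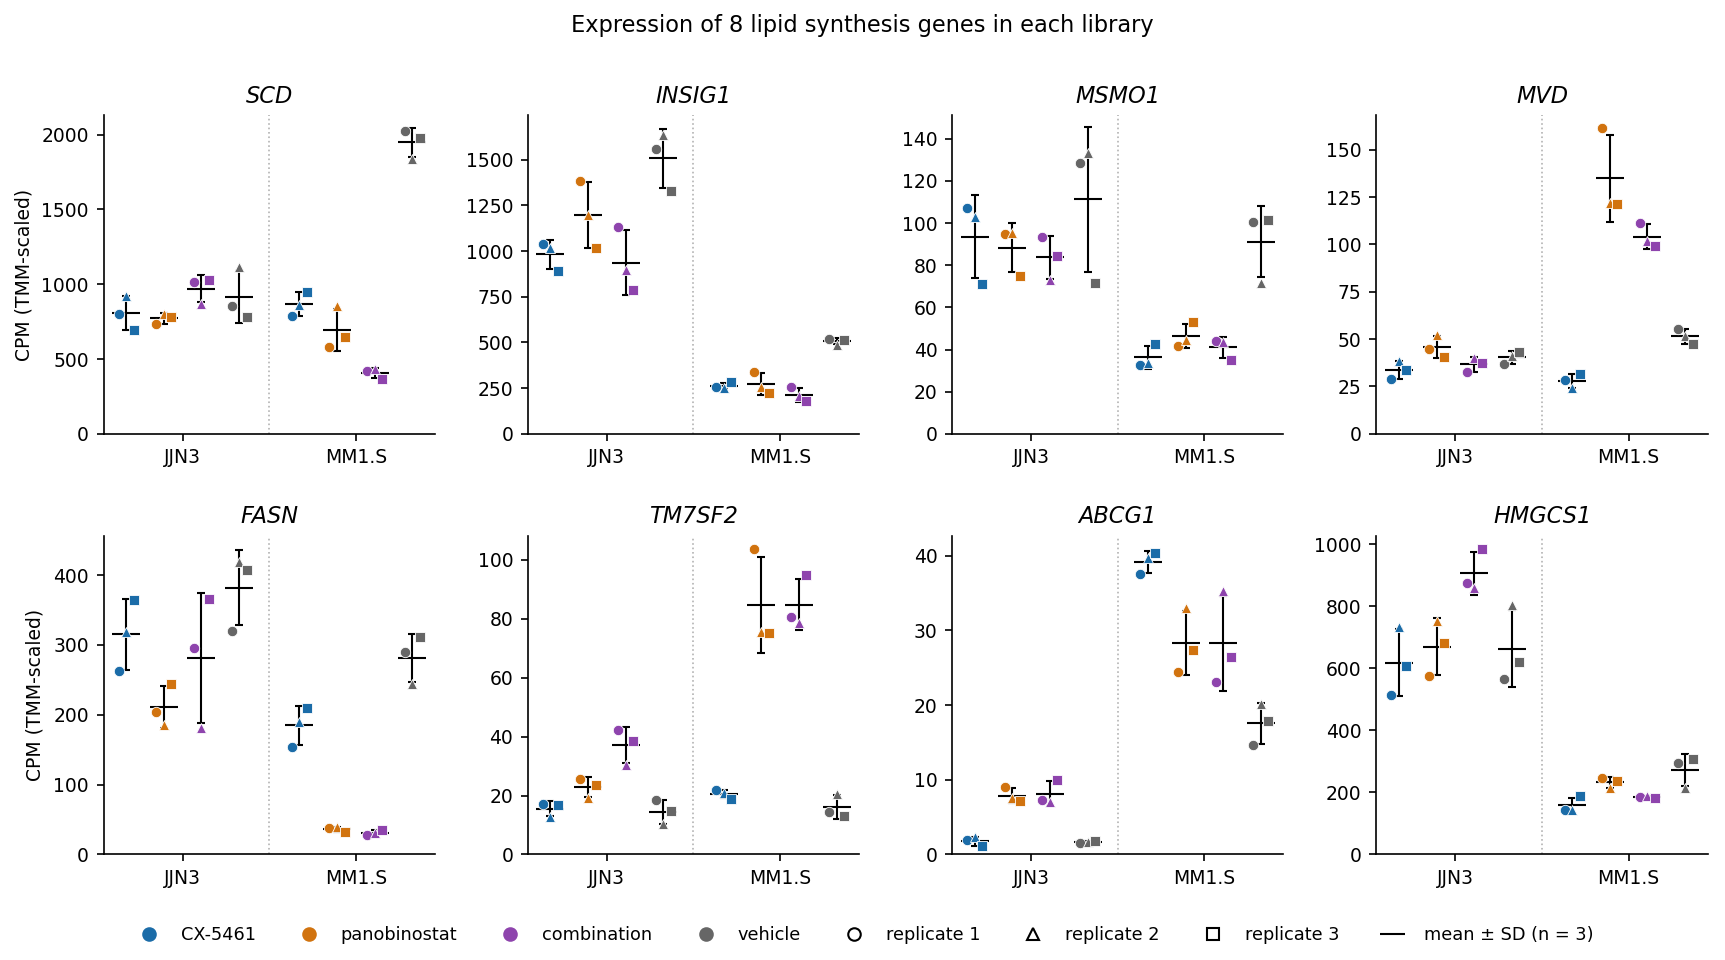
Expression in TMM-scaled CPM of 8 genes in each of the 24 libraries, with JJN3 left and MM1.S right of the dotted line and, within a line, CX-5461, panobinostat, the combination and vehicle from left to right. Symbols mark the replicate numbers, and bars the mean and SD of 3 libraries. In MM1.S all treated libraries of SCD, INSIG1 and MSMO1 lie below vehicle, and MVD lies below vehicle with CX-5461 and above it with panobinostat.

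Among the regulators, INSIG1, the sterol-sensing anchor of SCAP and itself a gene raised by SREBP factors, was lower with the combination in both lines. In JJN3, INSIG1 had 1039.9, 1015 and 892 CPM with CX-5461, 1381, 1197 and 1017 with panobinostat, 1131, 897 and 785 with the combination, and 1561, 1637 and 1329 with vehicle. The combination (-0.68 ± 0.15, adjusted p = 0.00140) and CX-5461 (-0.62 ± 0.15, adjusted p = 0.363) were below vehicle in every JJN3 library, while panobinostat overlapped it (-0.33 ± 0.15, adjusted p = 0.106). With the replicate block the change was -0.62 ± 0.08 for CX-5461 (adjusted p = 1.71e-05) and -0.34 ± 0.08 for panobinostat (adjusted p = 0.000728). In MM1.S, INSIG1 had 259, 248 and 282 CPM with CX-5461, 340.4, 257 and 223 with panobinostat, 256, 209 and 178 with the combination, and 522, 489 and 515 with vehicle. All 9 treated libraries were below the vehicle libraries of MM1.S, at -0.95 ± 0.13, adjusted p = 1.33e-05 for CX-5461, -0.89 ± 0.13, adjusted p = 2.03e-06 for panobinostat and -1.24 ± 0.13, adjusted p = 1.41e-08 for the combination.

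SREBF1 and SREBF2 encode the SREBP factors. SREBF1, whose products favour fatty acid synthesis, rose with panobinostat in both lines. In JJN3, SREBF1 had 45.4, 67.6 and 55.4 CPM with CX-5461, 88.8, 105 and 72.0 with panobinostat, 112, 122 and 128 with the combination, and 41.4, 76.4 and 52.9 with vehicle. The combination was above vehicle (1.09 ± 0.20, adjusted p = 0.000402), and panobinostat overlapped it (0.64 ± 0.20, adjusted p = 0.0265), a call lost without vehicle replicate 1 or 3 or panobinostat replicate 1 or 2 (adjusted p up to 0.118). In MM1.S, SREBF1 had 53.1, 62.9 and 56.6 CPM with CX-5461, 115, 143 and 123 with panobinostat, 77.6, 116 and 86.1 with the combination, and 67.8, 90.9 and 85.7 with vehicle. There CX-5461 lay below vehicle (-0.50 ± 0.14, adjusted p = 0.0144) and panobinostat above it (0.65 ± 0.14, adjusted p = 0.000181), and the combination overlapped it (0.20 ± 0.14, adjusted p = 0.196). The CX-5461 call was lost without vehicle replicate 2 or 3 or CX-5461 replicate 1 (adjusted p up to 0.0703) and with library size alone as the scaling.

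SREBF2, whose product favours cholesterol synthesis, fell with panobinostat and the combination in MM1.S. In JJN3, SREBF2 had 359, 411 and 334 CPM with CX-5461, 373, 354 and 343 with panobinostat, 309, 411 and 371 with the combination, and 334, 416 and 374 with vehicle. These groups overlapped, with log2 fold changes between -0.07 ± 0.13 with panobinostat and -0.03 ± 0.13 with CX-5461. In MM1.S, SREBF2 had 239, 261 and 248 CPM with CX-5461, 175, 172 and 163 with panobinostat, 131, 139.8 and 146 with the combination, and 239, 279 and 252 with vehicle. Panobinostat (-0.59 ± 0.09, adjusted p = 4.39e-06) and the combination (-0.88 ± 0.09, adjusted p = 8.52e-09) were below vehicle in every library, and CX-5461 overlapped it (-0.04 ± 0.09, adjusted p = 0.811). The microRNA genes MIR33B and MIR33A lie within SREBF1 and SREBF2. RAI1 and MIR6777 also overlap SREBF1. Among other genes of the set, MMAB overlaps MVK, WDR37 and IDI2-AS1 overlap IDI1, and NIPSNAP3B overlaps ABCA1. Without a stated strand setting the counts at these loci are uncertain.

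SCAP, the escort of SREBP, was called higher in 1 comparison with vehicle. In JJN3, SCAP had 68.6, 65.7 and 62.3 CPM with CX-5461, 73.8, 65.7 and 62.7 with panobinostat, 58.8, 74.6 and 67.2 with the combination, and 80.0, 74.2 and 80.4 with vehicle. CX-5461 and panobinostat lay below all vehicle libraries without a call (-0.26 ± 0.12, adjusted p = 0.892 and -0.21 ± 0.12, adjusted p = 0.223). In MM1.S, SCAP had 74.6, 71.8 and 76.4 CPM with CX-5461, 98.5, 76.0 and 82.4 with panobinostat, 109.7, 83.4 and 118 with the combination, and 73.7, 93.3 and 85.2 with vehicle. The combination was called (0.31 ± 0.12, adjusted p = 0.0318) although it overlapped vehicle, and the call was lost without vehicle replicate 1 or 3 or combination replicate 1 or 3 (adjusted p up to 0.263).

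STARD4, a carrier that moves sterol between membranes, rose with panobinostat in both lines. In JJN3, STARD4 had 24.1, 19.4 and 15.4 CPM with CX-5461, 40.3, 25.3 and 31.2 with panobinostat, 49.5, 32.1 and 40.2 with the combination, and 23.3, 19.3 and 18.9 with vehicle. Panobinostat (0.66 ± 0.21, adjusted p = 0.0271) and the combination (1.00 ± 0.21, adjusted p = 0.00104) were above vehicle, and the panobinostat call was lost without vehicle replicate 2 or 3 or panobinostat replicate 1 or 3 (adjusted p up to 0.173). In MM1.S, STARD4 had 15.1, 12.1 and 13.2 CPM with CX-5461, 15.9, 23.6 and 18.2 with panobinostat, 16.4, 14.6 and 10.9 with the combination, and 16.0, 9.86 and 10.8 with vehicle. Panobinostat overlapped vehicle there (0.65 ± 0.20, adjusted p = 0.00637), a call lost without vehicle replicate 2 or panobinostat replicate 2 (adjusted p up to 0.0619). INSIG2, the second anchor of SCAP, was higher with the combination in JJN3, at 17.8 ± 2.61 CPM against 10.3 ± 2.45 CPM with vehicle (SD, n = 3 each, 0.81 ± 0.22, adjusted p = 0.00806), a call lost without vehicle replicate 3 (adjusted p = 0.0524). An antisense gene, STARD4-AS1, overlaps STARD4.

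Among the fatty acid enzymes, FASN, FADS2 and SCD had the 3 largest falls of the tested genes of the set with the combination in MM1.S. SCD, which places the double bond in oleate and palmitoleate, was lowered by both drugs in MM1.S. In JJN3, SCD had 803, 921 and 697 CPM with CX-5461, 731, 802 and 784 with panobinostat, 1014, 866 and 1029.5 with the combination, and 852, 1112 and 782 with vehicle. The JJN3 groups overlapped, with log2 fold changes of -0.18 ± 0.14 for CX-5461, -0.24 ± 0.14 for panobinostat and 0.08 ± 0.14 for the combination, and 0 of them was called. In MM1.S, SCD had 789, 859.6 and 951 CPM with CX-5461, 583, 852 and 645 with panobinostat, 419.5, 434 and 368 with the combination, and 2026, 1840.2 and 1980.2 with vehicle. The highest treated library was below the lowest vehicle library of MM1.S, and the change was -1.17 ± 0.12, adjusted p = 6.87e-08 for CX-5461, -1.49 ± 0.12, adjusted p = 3.65e-11 for panobinostat and -2.26 ± 0.12, adjusted p = 2.09e-14 for the combination. SCD was also the 1 gene of the set called lower with the combination than with panobinostat in MM1.S, as given below with the other values of that comparison.

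FASN, which builds palmitate, had the largest fall of the tested genes of the set in MM1.S with panobinostat and with the combination. In JJN3, FASN had 263, 319 and 364 CPM with CX-5461, 204, 185 and 243 with panobinostat, 296, 181 and 366 with the combination, and 321, 418 and 408 with vehicle. Panobinostat was below vehicle in JJN3 (-0.86 ± 0.21, adjusted p = 0.00679), and the combination, with libraries far apart, overlapped it (-0.44 ± 0.20, adjusted p = 0.0993). In MM1.S, FASN had 154, 190.2 and 210.2 CPM with CX-5461, 37.1, 38.8 and 31.7 with panobinostat, 27.6, 30.8 and 35.1 with the combination, and 289, 244 and 311 with vehicle. Panobinostat (-2.97 ± 0.13, adjusted p = 7.41e-16) and the combination (-3.17 ± 0.13, adjusted p = 2.32e-16) left MM1.S with levels far below both vehicle and CX-5461, and CX-5461 was itself below vehicle (-0.61 ± 0.12, adjusted p = 0.000625).

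FADS1 and FADS2, neighbours on 1 chromosome whose products desaturate polyunsaturated fatty acids, fell with panobinostat in both lines. In JJN3, FADS1 had 193, 172 and 188 CPM with CX-5461, 108, 129 and 88.5 with panobinostat, 109.6, 91.3 and 84.9 with the combination, and 211, 181 and 168 with vehicle. The JJN3 changes of FADS1 were -0.78 ± 0.14, adjusted p = 0.000795 with panobinostat and -0.97 ± 0.14, adjusted p = 5.57e-05 with the combination, with no library overlapping vehicle. In MM1.S, FADS1 had 62.3, 54.0 and 65.2 CPM with CX-5461, 17.7, 18.0 and 13.7 with panobinostat, 20.8, 16.6 and 16.7 with the combination, and 55.9, 57.2 and 59.7 with vehicle. Those of MM1.S were -1.80 ± 0.14, adjusted p = 1.42e-11 and -1.68 ± 0.13, adjusted p = 3.85e-11, again without overlap, while CX-5461 overlapped vehicle (0.07 ± 0.12, adjusted p = 0.742).

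In JJN3, FADS2 had 129, 158 and 183 CPM with CX-5461, 109, 125 and 101 with panobinostat, 82.2, 68.4 and 107 with the combination, and 166, 166 and 166 with vehicle. Panobinostat (-0.57 ± 0.16, adjusted p = 0.0127) and the combination (-0.95 ± 0.16, adjusted p = 0.000153) were below vehicle, and the panobinostat call was lost without panobinostat replicate 3 (adjusted p = 0.0590). In MM1.S, FADS2 had 1.87, 2.28 and 1.68 CPM with CX-5461, 0.602, 0.349 and 0.751 with panobinostat, 0.566, 0.332 and 0.920 with the combination, and 2.61, 3.29 and 3.15 with vehicle. FADS2 was near the lower end of detection there, where 3 counts in the smallest library are 0.611 CPM, and its change was -2.37 ± 0.47, adjusted p = 7.76e-05 with panobinostat and -2.29 ± 0.46, adjusted p = 8.95e-05 with the combination. The annotations of FADS1 and FADS2 overlap, and reads in the shared stretch could have been split or dropped.

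LPIN1, which makes diacylglycerol from phosphatidate, rose with panobinostat in JJN3. In JJN3, LPIN1 had 182, 269.7 and 226 CPM with CX-5461, 261, 347 and 339 with panobinostat, 211, 290.1 and 283 with the combination, and 172, 259 and 201 with vehicle. Panobinostat was above all vehicle libraries (0.58 ± 0.18, adjusted p = 0.0234), a call lost without vehicle replicate 1 or 3 or panobinostat replicate 2 or 3 (adjusted p up to 0.107). In MM1.S, LPIN1 had 175, 172 and 163 CPM with CX-5461, 121, 153 and 132 with panobinostat, 111, 141 and 145 with the combination, and 149, 153 and 154 with vehicle, and 0 of the 3 treatments was called. ELOVL6, which elongates palmitate, was lower with the combination in JJN3, at 29.8 ± 3.07 CPM against 50.5 ± 2.04 CPM with vehicle (-0.76 ± 0.14, adjusted p = 0.000360), and in MM1.S, at 6.72 ± 0.616 CPM against 12.2 ± 2.53 CPM with vehicle (SD, n = 3 each, -0.86 ± 0.20, adjusted p = 0.000633). ACLY, which supplies cytosolic acetyl-CoA from citrate, was lower in MM1.S with panobinostat (-0.45 ± 0.11, adjusted p = 0.000652) and the combination (-0.40 ± 0.11, adjusted p = 0.00180), the second call being lost with library size alone as the scaling. ACACA, which makes malonyl-CoA, was listed at 0 to 0.348 CPM and was not tested.

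All 3 genes of sterol efflux and receptor turnover rose with panobinostat in MM1.S, and ABCG1 did so in JJN3. ABCA1 loads cholesterol onto apolipoprotein, and its levels were low in both lines. In JJN3, ABCA1 had 3.61, 3.99 and 3.37 CPM with CX-5461, 2.34, 4.07 and 2.12 with panobinostat, 0.842, 3.13 and 1.90 with the combination, and 2.79, 5.46 and 2.10 with vehicle. All JJN3 groups of ABCA1 overlapped, at -0.28 ± 0.45, adjusted p = 0.689 for panobinostat and -0.85 ± 0.47, adjusted p = 0.159 for the combination. In MM1.S, ABCA1 had 3.75, 3.70 and 3.92 CPM with CX-5461, 4.42, 8.04 and 8.07 with panobinostat, 4.15, 5.97 and 6.99 with the combination, and 1.57, 3.50 and 2.98 with vehicle. Panobinostat (1.37 ± 0.32, adjusted p = 0.000441) and the combination (1.11 ± 0.32, adjusted p = 0.00373) were above vehicle in every library, and so were the 3 CX-5461 libraries, without a call (0.52 ± 0.33, adjusted p = 0.311).

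ABCG1, which exports cholesterol to lipoprotein particles, rose in both lines. Its level in vehicle-treated JJN3 was low, where 3 counts in the smallest library are 0.631 CPM. In JJN3, ABCG1 had 1.89, 2.28 and 1.12 CPM with CX-5461, 9.03, 7.49 and 7.12 with panobinostat, 7.30, 7.05 and 10.0 with the combination, and 1.59, 1.64 and 1.80 with vehicle. Panobinostat (2.22 ± 0.31, adjusted p = 7.85e-05) and the combination (2.26 ± 0.30, adjusted p = 2.21e-05) lay well above vehicle, and CX-5461 overlapped it (0.05 ± 0.37, adjusted p = 1.00). In MM1.S, ABCG1 had 37.5, 39.7 and 40.4 CPM with CX-5461, 24.5, 33.0 and 27.4 with panobinostat, 23.0, 35.3 and 26.5 with the combination, and 14.6, 20.1 and 17.9 with vehicle. Each treatment was above vehicle in every library, at 1.17 ± 0.16, adjusted p = 8.40e-06 for CX-5461, 0.70 ± 0.17, adjusted p = 0.000574 for panobinostat and 0.70 ± 0.16, adjusted p = 0.000542 for the combination.

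MYLIP marks lipoprotein receptors for degradation. In JJN3, MYLIP had 20.5, 29.2 and 17.0 CPM with CX-5461, 24.1, 28.5 and 18.5 with panobinostat, 26.9, 30.9 and 25.7 with the combination, and 20.7, 28.2 and 16.4 with vehicle. The groups overlapped there, and the combination (0.36 ± 0.22, adjusted p = 0.214) was called with the replicate block (adjusted p = 0.0186). In MM1.S, MYLIP had 20.0, 25.3 and 18.1 CPM with CX-5461, 36.5, 52.9 and 42.6 with panobinostat, 28.1, 37.8 and 34.0 with the combination, and 22.8, 27.8 and 25.7 with vehicle. Panobinostat (0.80 ± 0.16, adjusted p = 6.82e-05) and the combination (0.40 ± 0.16, adjusted p = 0.0282) were above vehicle, and the combination's call was lost without vehicle replicate 1 or 3 or combination replicate 2 or 3 (adjusted p up to 0.174).

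The combination was also compared with panobinostat alone, which gives the change on adding CX-5461. SCD was lower with both drugs in MM1.S, and in JJN3 8 genes of the set were called in the fit with the replicate block and 0 without it. In JJN3, 0 of 33 were called for the combination against panobinostat, where 0.184% of all genes were called higher and 0.719% lower. Of the 33, 8 had an unadjusted edgeR p under 0.05, as had 1611 of the 11411 genes tested. The fit with the replicate block called 4 higher, HMGCS1, TM7SF2, SREBF1 and SCD, and 4 lower, PMVK, INSIG1, ELOVL6 and LPIN1, where it called 5.78% of all genes higher and 6.48% lower. With the block HMGCS1 was at 0.45 ± 0.09 (adjusted p = 0.00106) and TM7SF2 at 0.70 ± 0.13 (adjusted p = 0.000489), and INSIG1 was at -0.36 ± 0.08 (adjusted p = 0.00227). In MM1.S 0 of 33 were higher and 1 was lower, SCD (-0.77 ± 0.12, adjusted p = 0.000268), where 2.44% of all genes were called higher and 1.65% lower. Its 3 combination libraries were below the 3 panobinostat libraries, and the call held without any 1 library. The number of genes of the set called in MM1.S was 3 without panobinostat replicate 1 and 2 without combination replicate 2. Among all genes called there the share that was higher was 72.8% with library size alone as the scaling in place of 59.7%, and 51.3% in place of 20.4% in JJN3.

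Departure from additivity, meaning how far the combination's log2 fold change lay above or below the summed single-drug changes, was tested in the same fits. In JJN3 0 of 33 genes were called, where 0.0% of all genes were called higher and 0.0% lower, and 4 had an unadjusted p under 0.05, as had 564 of all genes. DESeq2 called 0 of the 33 and 19 of all genes there. With the replicate block HMGCS1 departed upward in JJN3 (0.55 ± 0.13, adjusted p = 0.0232), 1 of 33 genes, where 0.123% of all genes were called higher and 0.797% lower.

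In MM1.S 4 genes departed upward and 1 downward, where 1.87% of all genes were called higher and 3.65% lower. The upward ones were enzymes of cholesterol synthesis, namely MSMO1 (1.15 ± 0.20, adjusted p = 0.000821), DHCR7 (0.97 ± 0.18, adjusted p = 0.00122), SQLE (1.00 ± 0.27, adjusted p = 0.0270) and CYP51A1 (0.59 ± 0.14, adjusted p = 0.0124), which CX-5461 had lowered and whose change with both drugs was less negative than the sum of the single changes. SQLE was lost when any 1 of 6 libraries was left out (adjusted p up to 0.111), and CYP51A1 without combination replicate 1 (adjusted p = 0.0564). The downward one was ABCG1 (-1.16 ± 0.22, adjusted p = 0.00179), at 0.70 ± 0.16 with both drugs, 1.17 ± 0.16 with CX-5461 and 0.70 ± 0.17 with panobinostat. The number of genes of the set called was 10 without panobinostat replicate 1. The median departure was 0.46 over the 17 cholesterol synthesis enzymes and -0.02 over all genes of MM1.S. The departure uses the same vehicle and single-drug libraries as the single-drug changes, so an error in these libraries enters both.

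**Figure D3:**
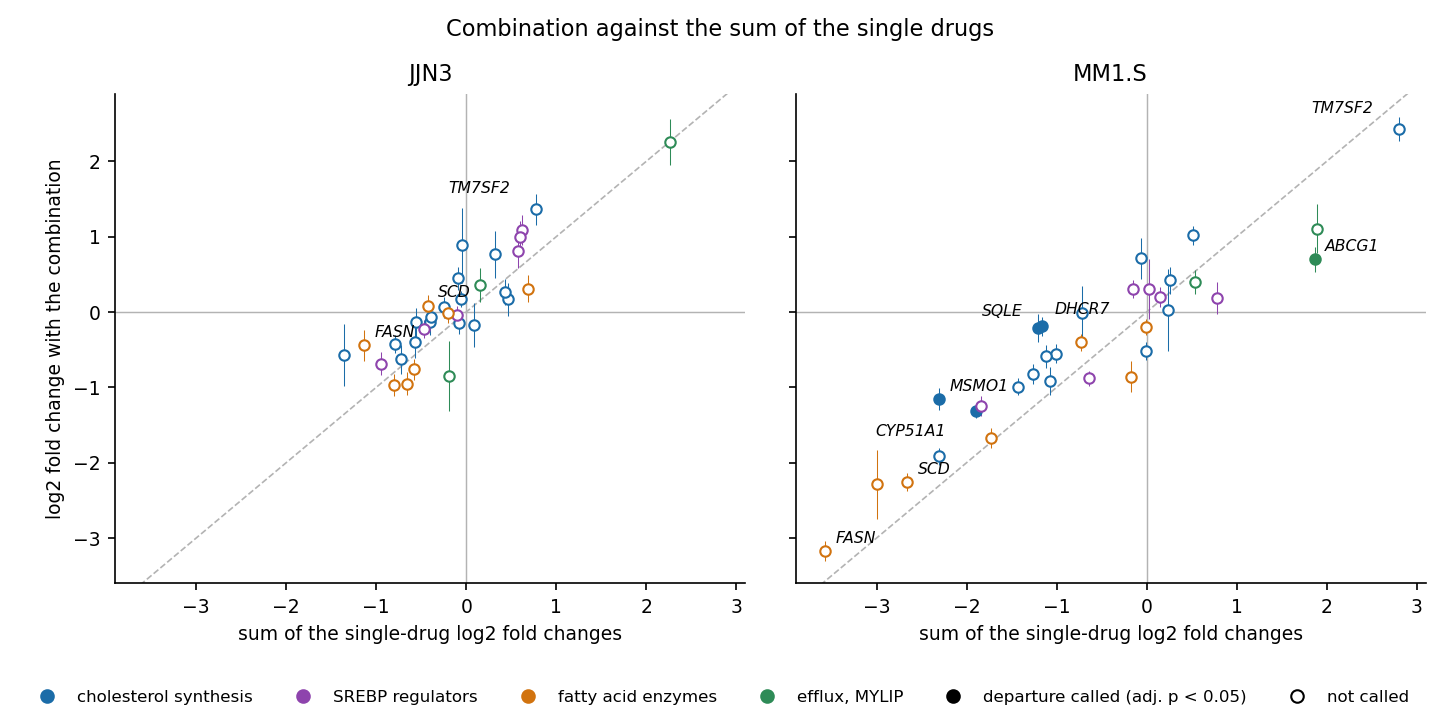
Log2 fold change with the combination (vertical, bars are the SE) against the sum of the log2 fold changes with the single drugs (horizontal) for the 33 genes in JJN3 (left) and MM1.S (right). Points on the dashed line are additive, and filled points are the called departures, 0 in JJN3 and 5 in MM1.S, with MSMO1, DHCR7, SQLE and CYP51A1 above the line and ABCG1 below it.

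The effects of the drugs were then compared between the lines, as the effect in JJN3 minus the effect in MM1.S in 1 fit of all 24 libraries. For CX-5461, 3 of 33 genes were higher and 0 lower by this difference, where 0.287% of all genes were called higher and 1.03% lower. They were SCD (0.99 ± 0.19, adjusted p = 0.00227), FDFT1 (0.65 ± 0.16, adjusted p = 0.0256) and MSMO1 (1.09 ± 0.27, adjusted p = 0.0387), each lowered by CX-5461 in MM1.S and not called in JJN3. With the replicate number within each line as a block, 8 were higher and 0 lower, adding CYP51A1 (0.72 ± 0.14, adjusted p = 0.000856), HMGCS1 (0.68 ± 0.14, adjusted p = 0.00152), DHCR7, SQLE and MVD, where 1.63% of all genes were called higher and 2.89% lower. In the fit without the block the call of SCD held whichever 1 of the 24 libraries was left out. That of FDFT1 was lost without vehicle replicate 1 or 3 or CX-5461 replicate 1 or 2 of MM1.S or vehicle replicate 3 of JJN3 (adjusted p up to 0.121), and that of MSMO1 without any 1 of 11 libraries (adjusted p up to 0.142). The number of genes called was 1 without each of those 5 libraries and 6 without vehicle replicate 2 of JJN3. INSIG1, at -0.62 ± 0.15 in JJN3 and -0.95 ± 0.13 in MM1.S, had no called difference (0.34 ± 0.21, adjusted p = 0.596).

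For panobinostat, 13 genes had a higher and 3 a lower effect in JJN3, where 18.9% of all genes were called higher and 14.4% lower. The fatty acid enzymes gave 5 of the 13, with FASN at 2.13 ± 0.26, adjusted p = 4.54e-07, FADS2 at 1.82 ± 0.46, adjusted p = 0.00234, SCD at 1.27 ± 0.19, adjusted p = 3.35e-06, FADS1 at 1.04 ± 0.20, adjusted p = 0.000157 and LPIN1 at 0.77 ± 0.21, adjusted p = 0.00484. FASN, FADS1 and FADS2 were lower in both lines and fell less in JJN3. EBP (1.39 ± 0.16, adjusted p = 7.92e-08) and ABCG1 (1.54 ± 0.34, adjusted p = 0.000653) moved the same way in both lines to different extents. The rise of ABCG1 in JJN3 started from a low level in vehicle. The 3 lower ones were TM7SF2 (-1.73 ± 0.28, adjusted p = 1.09e-05), MVD (-1.19 ± 0.19, adjusted p = 1.47e-05) and ABCA1 (-1.63 ± 0.55, adjusted p = 0.0213), each raised in MM1.S, and ABCA1 was lost without vehicle replicate 1 of MM1.S, vehicle replicate 2 of JJN3 or panobinostat replicate 1 of JJN3 (adjusted p up to 0.115). In all, 10 of the 16 calls held without any 1 of the 24 libraries. Those of PMVK and SREBF2 were lost without any 1 of 8 and 3 of them, and those of MVK, FDPS and INSIG1 were lost without any 1 of 18, 16 and 15 of them and under each of 3 other scalings. With library size alone as the scaling 9 genes were higher and 4 lower, with RLE or upper-quartile scaling 10 and 4, and the share of all called genes that was higher was 46.8% in place of 56.8%.

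For the combination, 15 genes had a higher and 4 a lower effect in JJN3, where 18.8% of all genes were called higher and 14.0% lower. FASN (2.74 ± 0.26, adjusted p = 7.02e-09), SCD (2.36 ± 0.19, adjusted p = 3.94e-11), EBP (1.51 ± 0.16, adjusted p = 1.57e-08) and FDFT1 (1.18 ± 0.16, adjusted p = 7.20e-07) had the smallest adjusted p. All 4 were lower with the combination in MM1.S, and of these EBP alone was called lower in JJN3. HMGCS1 (1.02 ± 0.20, adjusted p = 0.000193), SREBF2 (0.86 ± 0.16, adjusted p = 6.69e-05) and SREBF1 (0.91 ± 0.25, adjusted p = 0.00644) were among the higher ones. The 4 lower ones were MVD (-1.15 ± 0.19, adjusted p = 2.62e-05), TM7SF2 (-1.04 ± 0.27, adjusted p = 0.00339), ABCA1 (-1.94 ± 0.57, adjusted p = 0.00813) and SCAP (-0.52 ± 0.18, adjusted p = 0.0287). Of the 19 calls 12 held without any 1 library. INSIG1, STARD4, MSMO1 and MVK were lost without any 1 of 16, 14, 12 and 8 libraries, FADS2 of 5, SCAP of 3 and CYP51A1 of 2. The call of STARD4 was also lost under each of 3 other scalings, those of INSIG1 and MSMO1 under RLE and upper-quartile scaling, and that of MVK under library size and upper-quartile scaling.

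**Figure D4:**
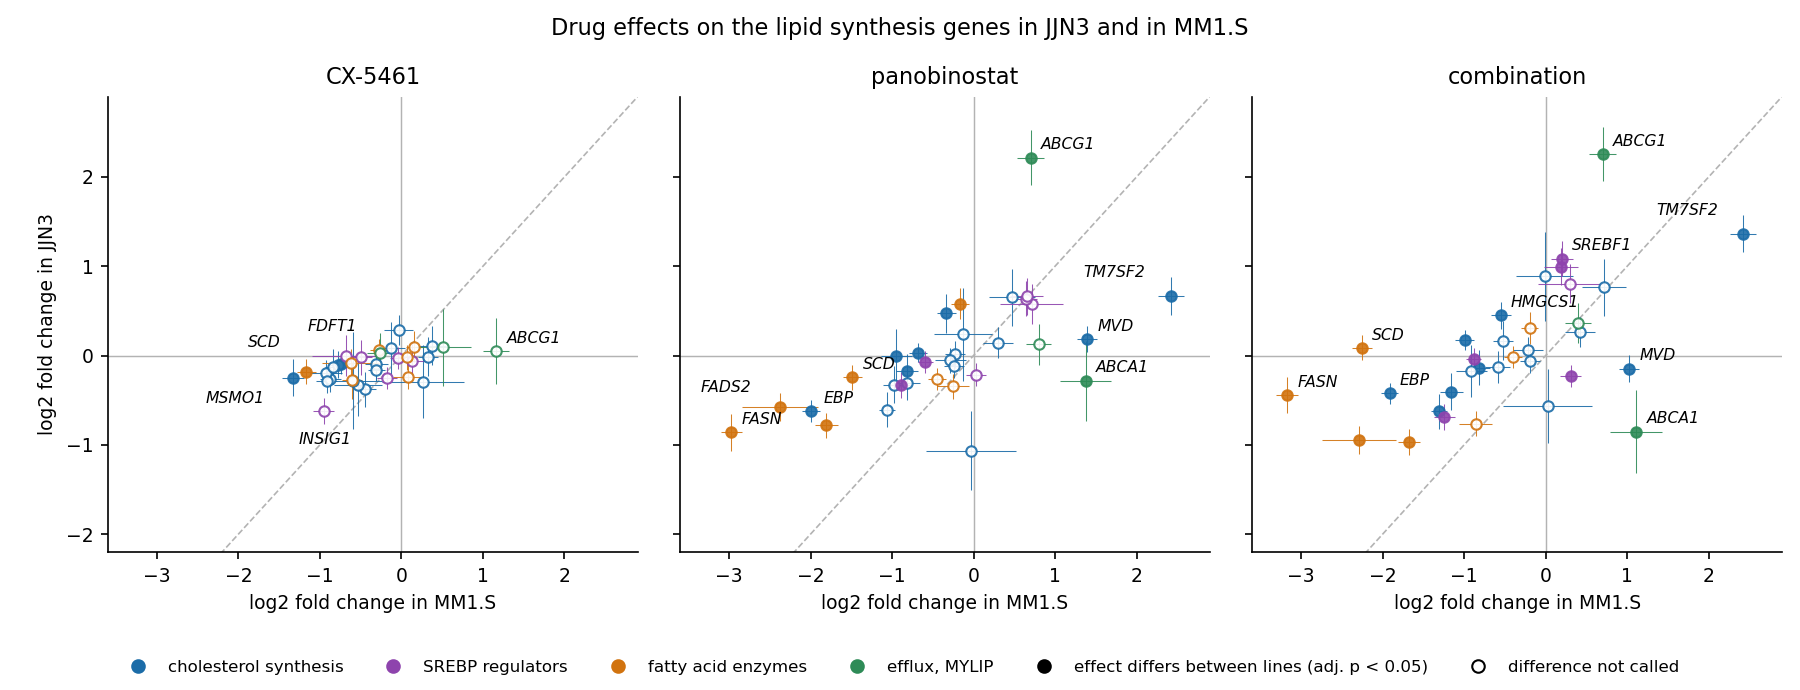
Log2 fold change in JJN3 (vertical) against that in MM1.S (horizontal) of the 33 genes for CX-5461, panobinostat and the combination, with bars for the SE, colours for the role, and filled points where the edgeR adjusted p of the difference was under 0.05. With CX-5461 most points lie below 0 in each line, 25 of 33 in JJN3 and 24 of 33 in MM1.S, and 3 points are filled. With panobinostat 16 points are filled and with the combination 19, FASN farthest to the left.

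In vehicle-treated cells the lines differed at 22 of 33 genes, or 66.7%, close to the 63.7% of all genes. In JJN3 against MM1.S, 14 genes were higher and 8 lower, where 30.2% of all genes were called higher and 33.5% lower. FADS2 differed most, with 166, 166 and 166 CPM in JJN3 against 2.61, 3.29 and 3.15 CPM in MM1.S (5.79 ± 0.20, adjusted p = 3.33e-21). SQLE had 120.2, 153 and 127 CPM in JJN3 and 17.4, 13.8 and 21.5 CPM in MM1.S (2.92 ± 0.16, adjusted p = 2.61e-16). Of the other fatty acid enzymes, ELOVL6 (2.05 ± 0.15, adjusted p = 5.63e-13), FADS1 (1.70 ± 0.14, adjusted p = 2.89e-12) and ACLY (0.93 ± 0.12, adjusted p = 6.69e-08) were also higher in JJN3, as were INSIG1 (1.57 ± 0.15, adjusted p = 1.78e-10) and HMGCS1 (1.29 ± 0.14, adjusted p = 3.73e-09). SCD (-1.09 ± 0.13, adjusted p = 2.22e-08), NSDHL (-1.38 ± 0.16, adjusted p = 1.11e-08), EBP (-1.74 ± 0.12, adjusted p = 3.66e-14) and ABCG1 (-3.35 ± 0.26, adjusted p = 8.55e-13) were lower in JJN3. For each of these the 3 JJN3 libraries did not overlap the 3 of MM1.S in CPM, which were scaled within each line and not between them. ACAT2 was higher in JJN3 with few reads (1.41 ± 0.48, adjusted p = 0.0108). Of the 22 calls 17 held without any 1 library, and those of MVD (-0.34 ± 0.14, adjusted p = 0.0337) and MVK (-0.40 ± 0.17, adjusted p = 0.0366) were lost without any 1 of 19 and 18 of the 24 libraries and under each of 3 other scalings. Those of FASN, LPIN1 and SREBF1 were lost without 3, 1 and 4 libraries, all of them vehicle.

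**Figure D5:**
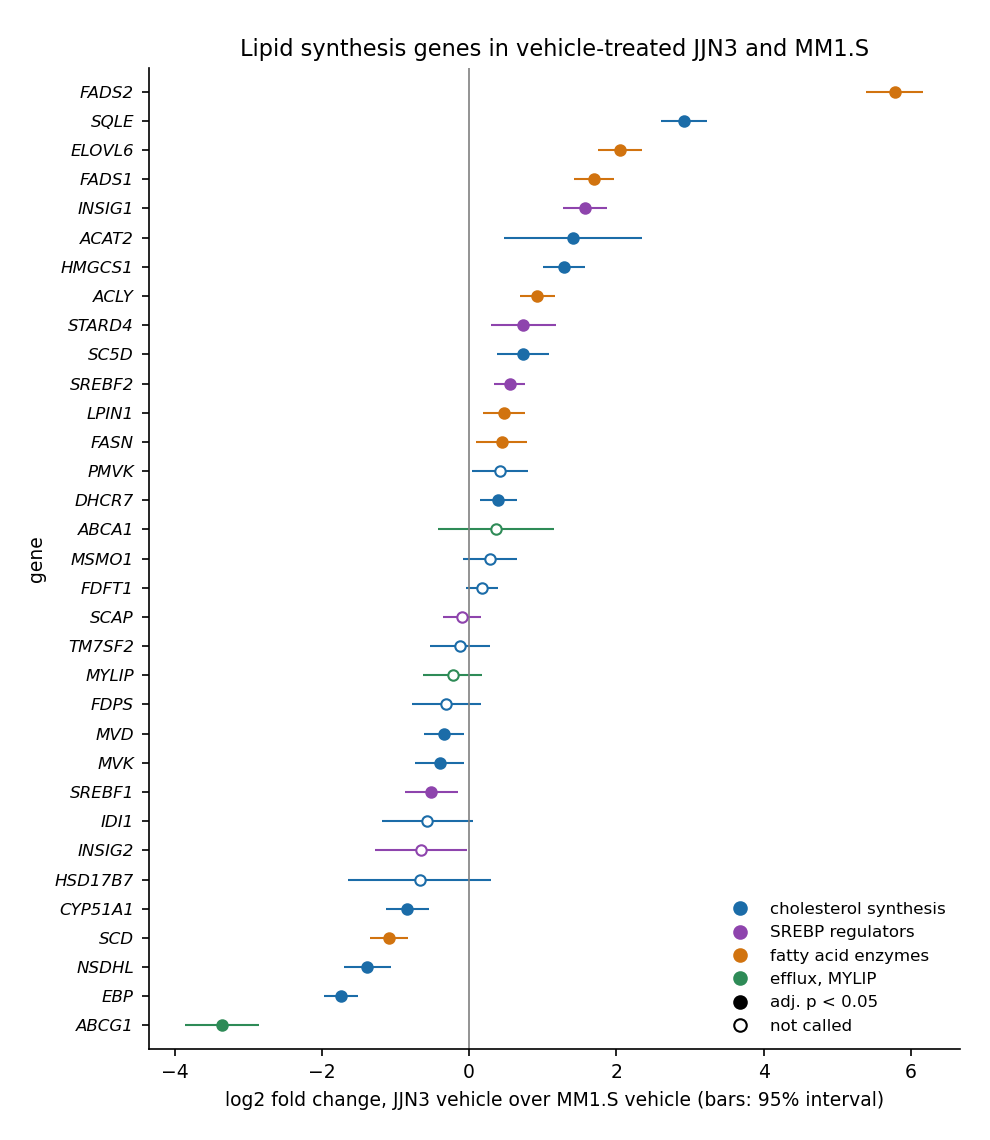
Log2 fold change of vehicle-treated JJN3 over vehicle-treated MM1.S for the 33 genes, ordered by size, with bars for the 95% interval, colours for the role and filled points where the edgeR adjusted p was under 0.05. FADS2 (5.79) and SQLE (2.92) are at the top, and ABCG1 (-3.35) and EBP (-1.74) at the bottom.

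Other genes of lipid metabolism were read from a second list of 57 genes, of which 48 were tested in JJN3 and 49 in MM1.S. CX-5461 called 0 of 48 in JJN3, where 0.0% of all genes were called higher and 0.0% lower, and in MM1.S 2 higher and 9 lower of 49, where 9.68% of all genes were called higher and 7.06% lower. In each comparison up to 2 genes with the smallest adjusted p in each direction are named. The higher one named in MM1.S was the citrate carrier SLC25A1 (0.54 ± 0.17, adjusted p = 0.0280). The lower ones named were EBPL, a relative of EBP (8.26 ± 1.34 CPM with CX-5461 and 20.5 ± 0.373 CPM with vehicle, -1.30 ± 0.18, adjusted p = 1.36e-05), and the lipoprotein receptor LRP8 (34.7 ± 5.24 CPM with CX-5461 and 65.7 ± 8.79 CPM with vehicle, -0.92 ± 0.13, adjusted p = 1.44e-05).

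Panobinostat called 10 higher and 9 lower of these 48 genes in JJN3, where 15.0% of all genes were called higher and 10.9% lower. In MM1.S it called 15 higher and 19 lower of 49, or 69.4% of them in either direction, beside 69.8% of all genes. The combination called 13 higher and 12 lower in JJN3, where 21.0% of all genes were called higher and 18.2% lower. In MM1.S it called 13 higher and 20 lower, or 67.3% of them, beside 70.2% of all genes. LRP8 was lower with panobinostat in JJN3 (26.7 ± 5.21 CPM, against 70.1 ± 8.59 CPM with vehicle, -1.39 ± 0.16, adjusted p = 1.61e-05) and in MM1.S (7.40 ± 0.821 CPM, against 65.7 ± 8.79 CPM with vehicle, -3.14 ± 0.16, adjusted p = 8.16e-15). LIPA, the lysosomal lipase that frees cholesterol from its esters, was higher with panobinostat in JJN3 (39.5 ± 7.39 CPM, against 16.3 ± 0.415 CPM with vehicle, 1.28 ± 0.18, adjusted p = 7.86e-05) and in MM1.S (97.6 ± 7.42 CPM, against 22.6 ± 0.827 CPM with vehicle, 2.11 ± 0.11, adjusted p = 1.25e-14). With the combination LRP8 changed by -1.64 ± 0.16, adjusted p = 1.08e-06 in JJN3 and -3.25 ± 0.16, adjusted p = 4.28e-15 in MM1.S, and LIPA by 1.33 ± 0.18, adjusted p = 2.02e-05 in JJN3 and 1.96 ± 0.11, adjusted p = 4.48e-14 in MM1.S. SCARB1, which takes up cholesterol from lipoproteins, was lower in JJN3 with panobinostat (-1.72 ± 0.20, adjusted p = 1.51e-05) and the combination (-1.68 ± 0.20, adjusted p = 5.26e-06). RNF145, a ligase of the sterol response, was lower in MM1.S with panobinostat (-1.41 ± 0.12, adjusted p = 1.32e-10) and the combination (-1.42 ± 0.12, adjusted p = 1.16e-10). FADS3, next to FADS2 in the genome, was higher, unlike FADS1 and FADS2, in JJN3 with panobinostat (1.52 ± 0.24, adjusted p = 0.000223) and in MM1.S with the combination (2.80 ± 0.21, adjusted p = 1.15e-11). ACSL3, which activates fatty acids, was higher with panobinostat in MM1.S (1.31 ± 0.10, adjusted p = 3.41e-11). MLXIPL, a factor that raises lipid synthesis genes in response to sugar, had 33, 22 and 29 counts with the combination and 0 counts in the 3 vehicle libraries of JJN3.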

How the data were processed

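The deposited values are counts of reads per gene for 24 libraries of 3′ RNA sequencing from polyadenylated RNA, 1 table per line, keyed by NCBI Gene identifiers. The submitters' processing notes name HISAT2 2.2.1, featureCounts 2.0.1, limma 3.50.0 and the builds hg19 and GRCh37, and the strand setting is not given in the sources used here. The counts were analysed with edgeR 4.0.16 in R 4.3.3 (filterByExpr, TMM scaling, robust quasi-likelihood F test), with 1 fit of 12 libraries per line and 1 fit of all 24 for differences between lines. P-values were adjusted by Benjamini-Hochberg over all genes of a fit, called under 0.05, and errors of log2 fold changes are standard errors. The smallest library has 4751893 counts, where 3 counts are 0.631 CPM. The fits were checked on simulated counts.

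The members and gene lists were chosen with earlier results of these data known. Values in every library are given for up to 4 members per role with the smallest adjusted p against vehicle, for members called in opposite directions by lines or drugs, and for members whose drug effect differed between lines. Same-numbered libraries deviated together in JJN3 (18 of 18 pairs with a correlation over 0.1, median 0.328) and less so in MM1.S (6 of 18 pairs, median 0.070). Alternatives were other scalings, no filter, DESeq2 1.42.0, limma-voom (limma 3.58.1), the replicate block, 1 fit of both lines, and leaving out each library. Counts of the set under them show how its calls depend on the setting, and the share of all genes called is given for some of them only. One alternative, JJN3 without its 4 libraries of number 2, was added after seeing the data. Some pathway genes and 1 marker are not reported here.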

Additional observations from a re-analysis of the deposited data

Results flagged for a closer look

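The effects below differed between the lines, as the edgeR test of the effect in JJN3 minus that in MM1.S gave an adjusted p under 0.05. For CX-5461 they were SCD (0.99), FDFT1 (0.65) and MSMO1 (1.09) on the log2 scale.

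For panobinostat the differences on the log2 scale were 2.13 for FASN, 1.82 for FADS2, 1.54 for ABCG1, 1.39 for EBP, 1.27 for SCD, 1.04 for FADS1, 0.96 for FDPS, 0.83 for PMVK, 0.77 for LPIN1, 0.74 for FDFT1, 0.65 for MVK, 0.58 for INSIG1 and 0.54 for SREBF2. They were -1.73 for TM7SF2, -1.63 for ABCA1 and -1.19 for MVD.

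For the combination they were 2.74 for FASN, 2.36 for SCD, 1.57 for ABCG1, 1.51 for EBP, 1.35 for FADS2, 1.18 for FDFT1, 1.02 for HMGCS1, 0.91 for SREBF1, 0.86 for SREBF2, 0.83 for STARD4, 0.77 for MSMO1, 0.73 for FADS1, 0.70 for CYP51A1, 0.70 for MVK and 0.58 for INSIG1. They were -1.94 for ABCA1, -1.15 for MVD, -1.04 for TM7SF2 and -0.52 for SCAP. These comparisons share their vehicle libraries.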

How the results depend on the processing

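A value counted as reversed if its sign changed and it was called in the main fit or in the alternative. Over the single-gene values of the 33 tested genes, 0 of 7128 values with 1 library left out and 0 of 3861 under the other settings reversed in this sense. Changes of sign among values called in neither were not counted. Of the 7128, 252 lost their call, 84 gained one and 67 uncalled values moved by more than 1 SE, and of the 3861, 62, 106 and 30 did so. For CX-5461 in MM1.S, 1 fit of both lines called 1320 of all genes, in place of 2014. For the combination against panobinostat in MM1.S, no filter called 4 genes of the set and the replicate block 6 in place of 1, while over all genes the block called 925 and 1 fit of both lines 187 in place of 491. For departure from additivity in MM1.S the replicate block called 9 genes of the set and 1023 of all genes, and 1 fit of both lines 330 of all genes, in place of 5 and 664. The block calls for the combination against panobinostat in MM1.S were 18.2% of the set, all lower, beside 7.69% of all genes. In MM1.S same-numbered libraries deviated together less than in JJN3, with 6 of 18 pairs over a correlation of 0.1. Of pairs with unlike numbers there, 1 of 36 was over it.

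In JJN3, where the numbers pair the libraries, the replicate block called 1 gene of the set and 157 of all genes for CX-5461 (in place of 0 and 0), 16 and 4784 for panobinostat (in place of 10 and 2964), 8 and 1399 for the combination against panobinostat (in place of 0 and 103), and 1 and 105 for departure from additivity (in place of 0 and 0). For CX-5461, no filter and DESeq2 each called 1 gene of the set, with 31 and 19 of all genes, and 1 fit of both lines called 8 of all genes. For the combination against panobinostat, no filter and 1 fit of both lines each called 1 gene of the set, with 439 and 412 of all genes. DESeq2 called 262 of all genes there, and JJN3 without its libraries of number 2 called 68. For departure from additivity, no filter called 46 of all genes, DESeq2 19 and 1 fit of both lines 2. For the CX-5461 effect between lines, no filter called 5 genes of the set and 310 of all genes, and the replicate block 8 and 582, in place of 3 and 170. The cause was not tested.

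With 1 library left out, the combination against panobinostat in MM1.S called 1 to 3 genes of the set and 175 to 1177 of all genes, with the most without panobinostat replicate 1. Departure from additivity in MM1.S called 4 to 10 and 415 to 1042. In JJN3, CX-5461 called 0 to 2 of all genes, panobinostat 5 to 10 genes of the set and 1957 to 3070 of all genes, the combination against panobinostat 0 to 156 of all genes, and departure from additivity 0 to 1. The CX-5461 effect between lines called 1 to 6 genes of the set and 108 to 245 of all genes. LSS and ACACA were below the filter on low counts and could not be compared at this depth. The limit of 3 counts (0.631 CPM in the smallest library) covers counting error only.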
